A study of Mus musculus with 35 samples.

Results

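The comparison set lungs of mice ventilated at low stretch with added CO2 (low stretch hypercapnia, 5 arrays) against lungs of mice ventilated in the same way without it (low stretch normocapnia, 5 arrays), over all genes. These are 10 of the 35 arrays of the series, chosen by the group named in their titles, and each array held the RNA of 1 animal. The mice were male adults of the inbred strain C57BL/6J, weighing 20 to 25 g and fed a normal diet. Under anesthesia and through a tracheostomy they received 135 breaths per minute of 10 mL/kg each for 3 h, with an end-expiratory pressure held at 2 cmH2O. The inspired gas was room air, with a CO2 fraction of 0.12 in the hypercapnia group. At the end the animals were exsanguinated, the airways were lavaged and the whole lungs were frozen. The RNA thus came from lavaged lung tissue of mixed cell types, without the cells that the lavage washed out. Values for 3 other groups were set beside them. These were high stretch hypercapnia (10 arrays), high stretch normocapnia (10 arrays) and non-ventilated mice (5 arrays). High stretch ventilation lasted 3 h at 35 to 40 mL/kg and a peak pressure of 27 cmH2O, with no end-expiratory pressure, 30 to 35 breaths per minute and an oxygen fraction of 0.75, again with or without a CO2 fraction of 0.12. A contrast of high with low stretch would therefore also be one of oxygen, rate and end-expiratory pressure, whereas both CO2 contrasts were made within one set of ventilator settings.

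Carbon dioxide that is not breathed out is hydrated to carbonic acid, a step sped up by carbonic anhydrases, and cells answer the acid load with sodium-proton and bicarbonate exchangers. Raised CO2 is known in lung for dampening of some inflammatory and NF-kappaB dependent responses, for slower clearance of alveolar fluid and for mitochondrial dysfunction. Proton-sensing receptors on endothelial and immune cells, among them the product of Gpr4, are other known routes by which acid reaches gene expression.

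The deposited table held 35557 probe sets, and 19938 genes remained with 1 probe set each. Lung identity was clear on all 10 low stretch arrays: the surfactant gene Sftpc lay between 13.94 and 14.10, the club cell gene Scgb1a1 between 13.66 and 13.85 and the alveolar type 1 gene Ager between 12.80 and 13.04 (log2 signal). The array medians of the whole series lay between 6.96 and 7.05. The spread of values within an array did not separate the groups, with an SD over probe sets of 2.22 ± 0.02 in hypercapnia and 2.22 ± 0.01 in normocapnia (SD, n = 5 each, two-sided exact permutation p 0.952, smallest possible 0.00794).

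A pair of hypercapnia arrays stood apart. Replicate 1 deviated most from its group, by a root mean square of 0.222 over genes, against 0.127 to 0.181 on the other 9 arrays. It also carried the highest neutrophil marker level of the 10 arrays, a mean of 10.02 over 22 measured markers. The other hypercapnia arrays had 8.68 to 8.97, and the normocapnia arrays 8.93 to 9.66. Replicate 3 carried genes of stratified squamous epithelium, the keratin-rich lining of skin, mouth and oesophagus. Its mean over 15 such genes, a list drawn up after the values were seen, was 8.34, against 5.36 to 5.72 on the other hypercapnia arrays and 5.43 to 5.54 on the normocapnia arrays. The keratin gene Krt13 was at 10.96 on that array and between 5.48 and 6.58 on the other 9, and the cornified envelope gene Sprr3 was at 9.75 against 4.52 to 5.53. Krt4 was at 10.68 there and at no more than 5.89 on the others. For each of these 3 genes 2 arrays outside the low stretch groups were higher still. By its deviation over all genes, 0.177, replicate 3 did not stand apart. Both hypercapnia arrays were kept. Most calls were lost without either of them, but also without some other arrays, such as normocapnia replicate 5, as given with the count of calls.

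Few genes passed, and the changes were small. Limma called 23 of 19938 genes (0.115%) at a Benjamini-Hochberg adjusted p under 0.05, of which 8 were higher (0.0401%) and 15 lower (0.0752%) in hypercapnia. The largest was a 1.91-fold rise of Pmvk, and no gene that passed changed by 1 log2 unit or more. With 5 arrays a group the 95% confidence interval of a log2 change reached 0.189 to either side for the median gene (quartiles 0.148 and 0.234). That reach matches an unadjusted p of 0.05. The weakest call, Supv3l1, had an unadjusted limma p of 5.59e-05, so to pass a change had to be well beyond the reach of its interval. Without adjustment 1839 genes (9.22%) had a p under 0.05, 894 of them higher (4.48%) and 945 lower (4.74%). The groups did not overlap at all in 403 genes (2.02%), with every hypercapnia array above in 187 (0.938%) and below in 216 (1.08%). The count of 23 depended on the other groups and on single arrays. With the low stretch arrays alone in the fit no gene passed. After a second quantile normalization 84 passed (34 higher, 50 lower), and with each array's spread in the model 100 (33 higher, 67 lower). Without hypercapnia replicate 1 the count was 7, and the genes that still passed were Tubb2b, Erf, Capn5, Ints7, Ankrd37, Ino80c and Slc9a8. Without hypercapnia replicate 3 it was 4, and these were Erf, Capn5, Ints7 and Ubxn8. It was 5 without replicate 4 and 14 without replicate 5. It was likewise 4, 6 and 3 without normocapnia replicate 3, 4 or 5, and 0 without both hypercapnia replicates 1 and 3, an alternative added after seeing the data. Over the 10 fits that each left out 1 array, 17 of the 23 genes passed in only 1 to 4. Ramp3, Zfp518a and Supv3l1 passed in 1 of them, and Tubb2b, Fbxo44, Fastkd2, Fancl and Nfyc in 2. Mlst8, Wdr41, Gabpb2 and Snapc5 passed in 3, and Pmvk, Ccr8, Zbtb7b, Nmnat1 and Slc9a8 in 4.

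Among the higher genes the sterol enzyme Pmvk moved most and scattered most. Pmvk, which encodes phosphomevalonate kinase of the mevalonate route to cholesterol, was at 10.50, 9.93, 10.27, 11.04 and 9.61 in hypercapnia (log2 signal), against 9.42, 9.81, 9.09, 9.21 and 9.13 in normocapnia. Hypercapnia replicate 5 lay below normocapnia replicate 2, and the other 4 hypercapnia arrays lay above every normocapnia array. Its mean was 10.27 ± 0.55 in hypercapnia and 9.33 ± 0.29 in normocapnia (SD, n = 5 each, limma log2 change 0.93 ± 0.19 SE, adjusted p 0.0308). Ramp3 encodes a membrane partner that turns the calcitonin receptor-like receptor into an adrenomedullin receptor. It was at 7.70, 7.75, 7.90, 8.22 and 7.77 in hypercapnia, against 6.97, 7.27, 6.97, 7.28 and 7.26 in normocapnia. The groups did not overlap, and the log2 change was 0.72 (95% confidence interval 0.41 to 1.03, limma adjusted p 0.0396). None of the other 10 measured calcitonin family genes passed, the receptor gene Calcrl being at -0.09 and the peptide gene Calcb at 0.16.

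Ccr8 and Zbtb7b, both on the T and natural killer cell list, passed on the higher side. Ccr8, a chemokine receptor of regulatory and type 2 helper T cells, was a low signal throughout, at 6.08, 6.03, 6.17, 5.87 and 6.49 in hypercapnia and 5.37, 5.65, 5.22, 5.78 and 5.46 in normocapnia. All 5 hypercapnia arrays lay above every normocapnia array (log2 change 0.63 ± 0.12 SE, limma adjusted p 0.0299). Zbtb7b, the transcription factor ThPOK that directs thymocytes to the CD4 lineage and is also made outside T cells, was at 9.23, 8.97, 9.11, 9.08 and 9.00 in hypercapnia and 8.79, 8.87, 8.83, 8.77 and 8.63 in normocapnia. The groups were separate here too, at a smaller change of 0.30 ± 0.06 (SE, limma adjusted p 0.0308). The other 18 measured genes of the list did not pass. Of all 20, 12 were above 0 and 8 below, with a median of 0.02. At an unadjusted p under 0.05 there were 2 higher (4.48% of all genes were) and 2 lower (4.74% of all genes). In whole lung RNA a change in the number of cells of a type and a change in RNA per cell cannot be told apart.

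In the remaining 4 higher genes the groups did not overlap either. Erf, an ETS family repressor that is switched off by ERK phosphorylation, was at 8.20, 8.04, 8.14, 8.23 and 8.05 in hypercapnia, against 7.80, 7.73, 7.69, 7.70 and 7.60 in normocapnia. Its change of 0.43 ± 0.07 (SE, 1.35-fold) had an adjusted p of 0.00364 in limma, and Erf passed in each of the 10 fits that left out 1 array. No other of the 24 measured ETS family genes passed. Capn5, a calpain protease gene, had the tightest hypercapnia values of the higher genes, 8.04, 8.15, 8.06, 8.05 and 8.12, against 7.53, 7.64, 7.77, 7.79 and 7.60 in normocapnia. It passed in 9 of those 10 fits. The beta-tubulin gene Tubb2b was at 6.57 to 7.10 in hypercapnia and 6.25 to 6.45 in normocapnia (log2 change 0.45, limma adjusted p 0.0396). Fbxo44, which encodes a substrate adaptor of a ubiquitin ligase, was at 7.55 to 7.81 in hypercapnia and 7.06 to 7.39 in normocapnia (0.36, limma adjusted p 0.0314).

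**Figure D1:**
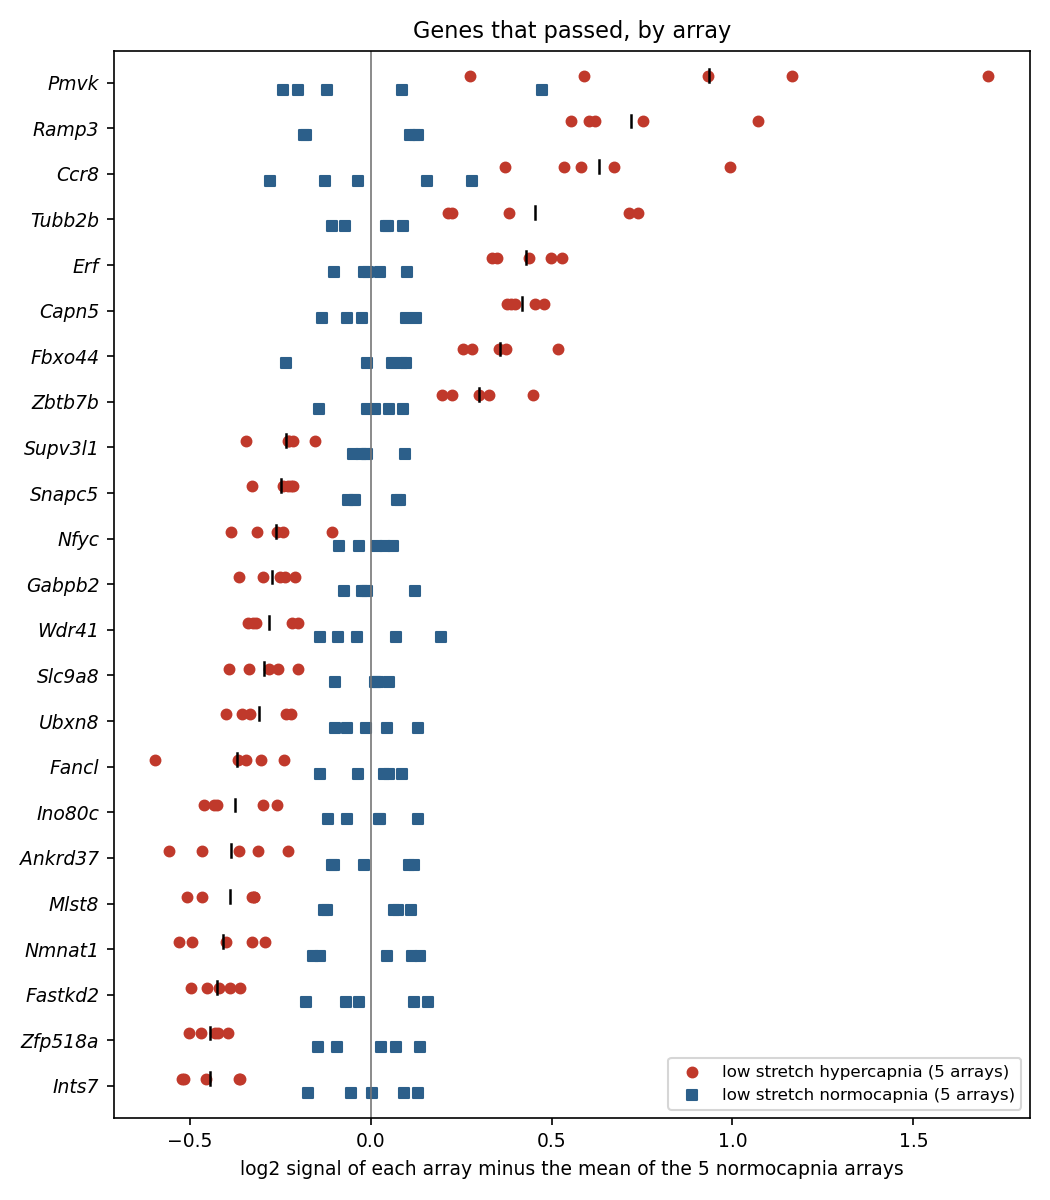
Each row is a gene that passed, with the log2 signal of each low stretch array given relative to the mean of the 5 normocapnia arrays (x axis, log2 units). Circles are hypercapnia arrays, squares are normocapnia arrays and the black tick is the hypercapnia mean. The groups overlap in Pmvk and are separate in the other 22 genes, as they are in 2.02% of all genes. The genes were picked by their p on these same arrays, which favours separation.

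The smallest p of the comparison belonged to a gene that was lower. Ints7, a subunit of the Integrator complex that trims small nuclear RNAs and ends unproductive transcription, was at 9.20, 9.29, 9.14, 9.29 and 9.13 in hypercapnia and 9.48, 9.66, 9.79, 9.75 and 9.60 in normocapnia. Every hypercapnia array lay below every normocapnia array, and the log2 change was -0.44 ± 0.06 (SE, 1.36-fold, limma adjusted p 0.00128). Ints7 passed in all 10 fits without 1 array. Snapc5, a subunit of the factor that starts transcription of small nuclear RNA genes, was at 7.88, 7.98, 7.99, 7.99 and 7.97 in hypercapnia and 8.14, 8.16, 8.16, 8.29 and 8.28 in normocapnia (-0.25 ± 0.05 SE, limma adjusted p 0.0308). Its values were separate as well, by a gap smaller than that of Ints7.

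A pair of the lower genes act on mitochondrial RNA. Fastkd2, a mitochondrial RNA-binding protein gene needed for assembly of the mitochondrial ribosome, was at 6.99, 7.12, 7.03, 7.10 and 7.06 in hypercapnia, against 7.60, 7.31, 7.41, 7.45 and 7.64 in normocapnia. The hypercapnia values were much closer together, with an SD of 0.05 against 0.14 in normocapnia, and the log2 change was -0.42 ± 0.09 (SE, limma adjusted p 0.0308). Supv3l1, the helicase of the mitochondrial RNA degradation machine, was at 7.98, 8.04, 7.97, 7.97 and 7.85 in hypercapnia and 8.29, 8.15, 8.18, 8.17 and 8.19 in normocapnia. It was the weakest call, at -0.23 ± 0.05 (SE, limma adjusted p 0.0485), and passed in 1 of the 10 fits without 1 array.

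Nuclear functions made up the next group. Ino80c, a subunit of the INO80 chromatin remodeller, was at 8.74, 8.61, 8.58, 8.60 and 8.78 in hypercapnia and 9.06, 8.97, 8.92, 9.06 and 9.17 in normocapnia (-0.37 ± 0.07 SE, limma adjusted p 0.0257). Fancl, the ubiquitin ligase subunit of the Fanconi anaemia pathway of DNA crosslink repair, was at 7.09, 7.44, 7.32, 7.38 and 7.34 in hypercapnia and 7.73, 7.54, 7.65, 7.72 and 7.77 in normocapnia. Its lowest value was that of hypercapnia replicate 1, and the groups did not overlap. Nmnat1, which makes NAD in the nucleus, was at 6.65 to 6.89 in hypercapnia and 7.02 to 7.32 in normocapnia (-0.41, limma adjusted p 0.0308). Zfp518a, a zinc finger gene, was at 7.44 to 7.54 in hypercapnia and 7.79 to 8.08 in normocapnia (-0.44, limma adjusted p 0.0358). Transcription factor subunits fell by less: Nfyc, a subunit of the factor NF-Y that binds CCAAT boxes, was at 8.86 to 9.13 in hypercapnia and 9.15 to 9.30 in normocapnia. Its log2 change was -0.26 (limma adjusted p 0.0434), and a second probe set of Nfyc with a lower mean signal was at -0.16, which did not pass. Gabpb2, a cofactor subunit of the ETS factor GABP, was at 8.90 to 9.05 in hypercapnia and 9.19 to 9.39 in normocapnia (-0.27, limma adjusted p 0.0308).

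The other 5 lower genes act in the cytoplasm and on membranes, apart from Ankrd37, a known target of hypoxia-inducible factors. Mlst8, a subunit of both mTOR complexes, was at 7.76, 7.94, 7.80, 7.94 and 7.93 in hypercapnia and 8.13, 8.14, 8.37, 8.34 and 8.33 in normocapnia (-0.39 ± 0.08 SE, limma adjusted p 0.0396). Slc9a8, a sodium-proton exchanger of the Golgi and endosomes, was at 9.23, 9.15, 9.04, 9.09 and 9.17 in hypercapnia and 9.44, 9.48, 9.45, 9.33 and 9.45 in normocapnia. It was the only member of the acid and bicarbonate handling lists to pass (-0.29 ± 0.06 SE, limma adjusted p 0.0308). Ubxn8, which tethers the p97 ATPase to the endoplasmic reticulum for protein degradation, was at 8.24 to 8.42 in hypercapnia and 8.54 to 8.77 in normocapnia (-0.31, limma adjusted p 0.0299). Ankrd37 was at 6.74 to 7.07 in hypercapnia and 7.19 to 7.41 in normocapnia (-0.38, limma adjusted p 0.021). Wdr41, a partner of C9orf72 on lysosomes, was at 8.94 to 9.08 in hypercapnia and 9.14 to 9.47 in normocapnia (-0.28, limma adjusted p 0.0443).

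Promoter windows from 250 bases before to 50 after the annotated start were available for 19 of the 23 genes (6 higher, 13 lower) in RefSeq on GRCm38.p6. They were read because CREB and NF-Y subunits bind short motifs near start sites, and Nfyc itself was lower. The letters TGACG, the core of the cAMP response element, stood on either strand in 10 of the 19 genes (2 higher, 8 lower), against 23% of 27025 genes with a window. Shares of all genes in this paragraph are over that set, which is not the 19938 genes tested. It was not matched to the called genes in expression, so an excess cannot be read from it. The full element TGACGTCA, which contains that core on both strands, was in Ints7 and Snapc5 and in 2.03% of all genes. The NF-Y letters CCAAT were in 10 of 19, against 41.1% of all genes, and the ETS letters CCGGAAG in 5 of 19, against 9.93%. The sterol element TCACNCCAC and the E-box CACGTG were in none of the 19, against 1.44% and 8.09% of all genes. The windows of Ints7, Snapc5, Erf and the upstream start of Pmvk are shown 5′ to 3′ on the gene's strand, since they are those of the smallest p on either side, of both genes with the full element and of the largest change. Capitals mark TGACG and CCAAT on either strand. The windows lie at chr1:191575386-191575685 (plus strand) for Ints7, chr9:64179047-64179346 (plus) for Snapc5, chr7:25250709-25251008 (minus) for Erf and chr3:89454291-89454590 (plus) for Pmvk. The window of a second annotated start of Pmvk, chr3:89459321-89459620 (plus), held neither TGACG nor CCAAT and is not shown. A match describes the letters alone.
Ints7: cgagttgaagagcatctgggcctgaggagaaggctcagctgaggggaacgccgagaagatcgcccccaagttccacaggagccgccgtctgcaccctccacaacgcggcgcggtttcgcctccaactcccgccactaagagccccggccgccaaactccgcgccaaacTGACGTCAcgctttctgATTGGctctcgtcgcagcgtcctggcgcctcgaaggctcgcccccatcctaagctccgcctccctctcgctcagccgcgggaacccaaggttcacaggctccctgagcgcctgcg
Snapc5: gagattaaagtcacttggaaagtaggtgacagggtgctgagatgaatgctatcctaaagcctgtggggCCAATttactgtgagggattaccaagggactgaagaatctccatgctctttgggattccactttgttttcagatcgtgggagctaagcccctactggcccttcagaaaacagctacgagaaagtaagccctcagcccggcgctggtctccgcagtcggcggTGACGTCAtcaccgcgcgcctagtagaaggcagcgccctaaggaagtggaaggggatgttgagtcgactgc
Erf: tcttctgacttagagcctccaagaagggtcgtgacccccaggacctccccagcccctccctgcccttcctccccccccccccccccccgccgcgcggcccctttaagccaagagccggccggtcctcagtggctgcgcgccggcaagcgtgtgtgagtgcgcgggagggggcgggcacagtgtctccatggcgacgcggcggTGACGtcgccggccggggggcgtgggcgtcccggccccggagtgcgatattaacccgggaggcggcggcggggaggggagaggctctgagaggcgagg
Pmvk: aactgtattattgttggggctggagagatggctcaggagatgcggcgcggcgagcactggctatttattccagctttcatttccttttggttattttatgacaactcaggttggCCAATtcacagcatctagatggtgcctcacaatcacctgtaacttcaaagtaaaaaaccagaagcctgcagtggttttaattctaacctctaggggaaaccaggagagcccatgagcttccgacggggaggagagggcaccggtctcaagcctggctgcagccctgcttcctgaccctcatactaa

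The same genes were read on the high stretch arrays, which are other animals but stand in the same limma fit and share its estimate of each gene's spread. All 23 genes had the same direction there, and 18 of them (7 higher, 11 lower) passed at high stretch, where limma called 1109 of 19938 genes (5.56%), 497 higher (2.49%) and 612 lower (3.07%). Over all genes 60.5% had the same direction at both stretch levels. The median size of the 23 log2 changes was 0.38 at low stretch and 0.22 at high stretch, and 21 were smaller at high stretch (the genes were picked by their low stretch p). Fbxo44 and Ubxn8 were the exceptions, at 0.36 and -0.31 at low stretch and 0.40 and -0.34 at high stretch. Fastkd2 was at -0.42 and -0.41, and Pmvk at 0.93 and 0.75. In 3 genes, Fbxo44, Fastkd2 and Ubxn8, the 10 hypercapnia arrays at high stretch also lay wholly apart from the 10 normocapnia arrays, as they did in 0.436% of all genes.

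The 5 genes that did not pass at high stretch were Ccr8, Zfp518a, Ankrd37, Snapc5 and Supv3l1. Ccr8 was at 0.63 ± 0.12 at low stretch and 0.15 ± 0.09 at high stretch (SE), and high stretch normocapnia arrays reached 6.38, above the 6.32 of the highest hypercapnia array there. Supv3l1 was at -0.23 ± 0.05 and -0.07 ± 0.04 (SE), with values of 7.97 to 8.28 in high stretch hypercapnia and 8.15 to 8.30 in high stretch normocapnia. These differences between the stretch levels did not pass when tested directly. Limma called 0 of 19938 genes for the difference of both CO2 effects (smallest adjusted p 0.841), and 893 genes (4.48%) had an unadjusted p under 0.05. Among the 23 genes 8 had such an unadjusted p, led by Ccr8 (0.00273), Ankrd37 (0.0055), Erf (0.00943) and Supv3l1 (0.0137), all with an adjusted p of 0.997. The 23 genes were picked by their low stretch p on the same arrays, which by itself favours a small p here. Their share therefore cannot be read against that of all genes.

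**Figure D2:**
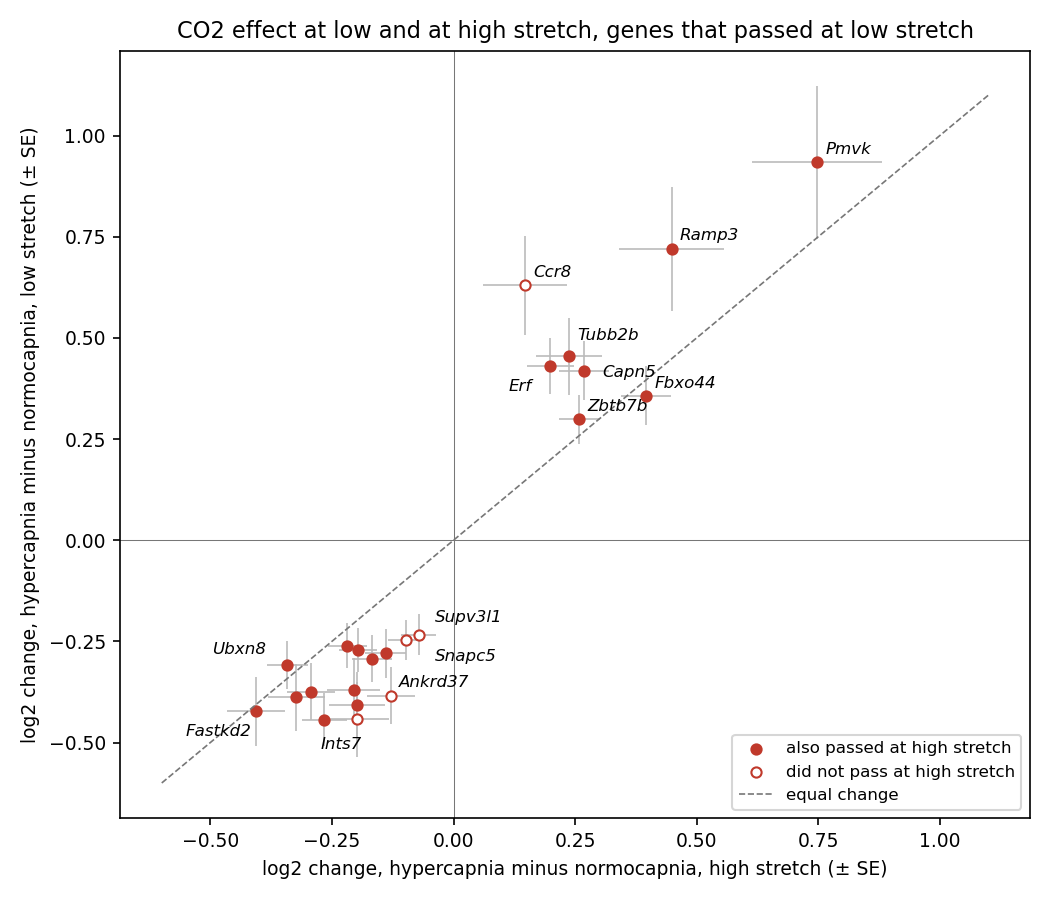
The log2 change with CO2 is plotted for the 23 genes that passed at low stretch, at low stretch (y axis) against high stretch (x axis), with limma standard errors as bars. Filled points, 18 genes, also passed at high stretch, and 21 points lie farther from 0 on the low stretch axis than on the other.

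Read the other way, the high stretch calls were mostly in the same direction at low stretch. Of the 1109 genes called there 1001 (90.3%) had the same direction at low stretch, and 462 (41.7%) also had an unadjusted p under 0.05 in that direction. Their median size was 0.13 at low stretch and 0.22 at high stretch. These genes were picked by their high stretch p.

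Levels in all 5 groups placed the low stretch values. Pmvk averaged 10.27 ± 0.55 in low stretch hypercapnia, 9.33 ± 0.29 in low stretch normocapnia, 11.05 ± 0.24 in high stretch hypercapnia, 10.30 ± 0.29 in high stretch normocapnia and 8.58 ± 0.21 in non-ventilated lungs (SD, n = 5, 5, 10, 10 and 5). Low stretch hypercapnia and high stretch normocapnia thus lay within 1 SD of each other, and non-ventilated lungs were lowest. Erf averaged 8.13 ± 0.09 in low stretch hypercapnia, 7.70 ± 0.07 in low stretch normocapnia and 7.69 ± 0.05 in non-ventilated lungs. The last pair of groups differed by less than their SD. Capn5 averaged 8.09 ± 0.04 in low stretch hypercapnia, 7.67 ± 0.11 in low stretch normocapnia and 8.05 ± 0.10 in non-ventilated lungs, so its hypercapnia and non-ventilated values overlapped. Ints7 averaged 9.21 ± 0.08 in low stretch hypercapnia, 9.65 ± 0.12 in low stretch normocapnia and 9.39 ± 0.05 in non-ventilated lungs. Ubxn8 averaged 8.33 ± 0.08 in low stretch hypercapnia, 8.64 ± 0.09 in low stretch normocapnia and 8.27 ± 0.08 in non-ventilated lungs. In Ints7 the non-ventilated mean lay between both ventilated means, while in Ubxn8 it lay within 1 SD of the hypercapnia mean. The low stretch normocapnia arrays stand in both contrasts that such levels imply, so no share of genes was counted across them.

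**Figure D3:**
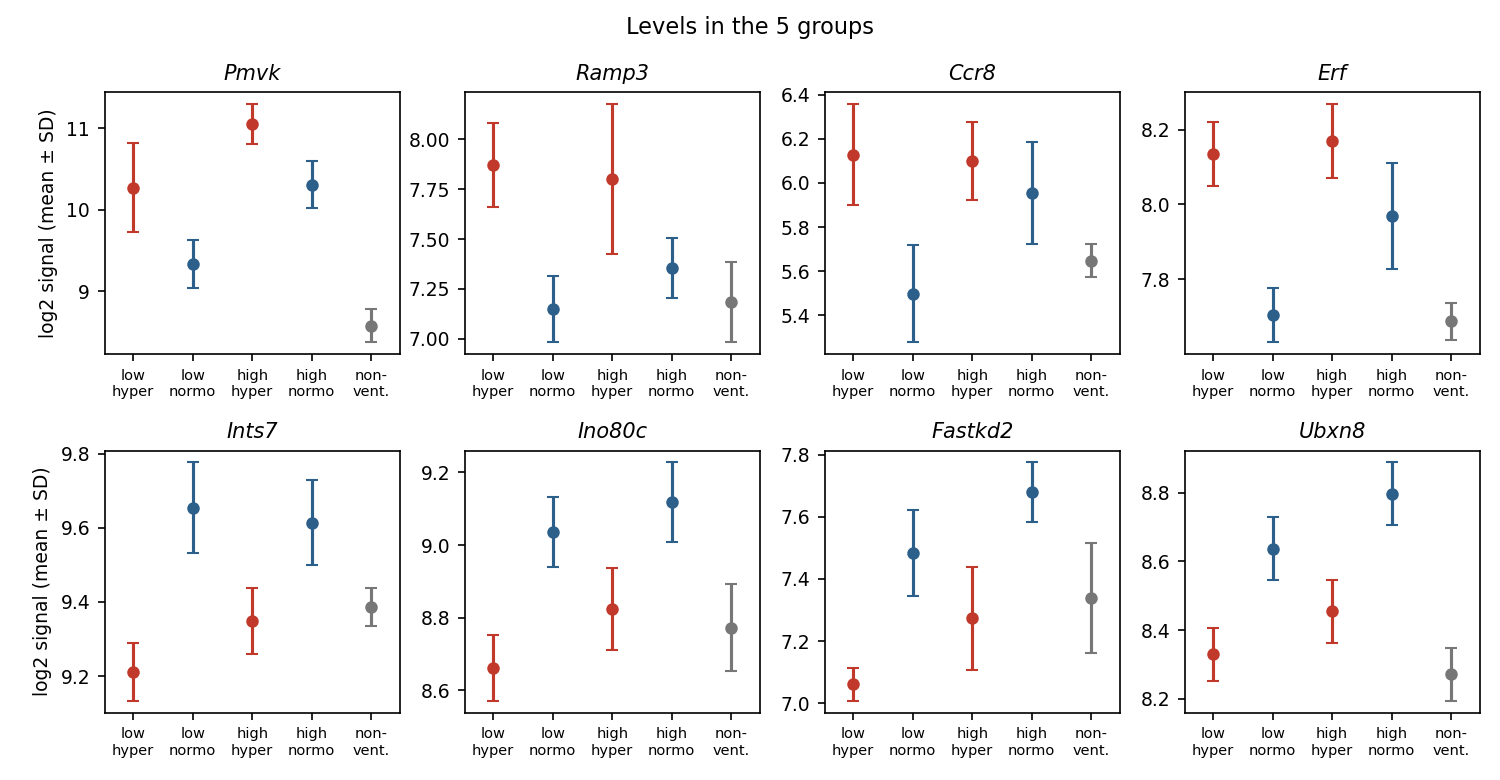
Group means with SD (log2 signal, y axis, a separate scale for each gene) for 8 genes in the 5 groups (x axis, left to right low stretch hypercapnia, low stretch normocapnia, high stretch hypercapnia, high stretch normocapnia and non-ventilated). In each of the 8 genes hypercapnia and normocapnia differ in the same direction at both stretch levels.

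Gene lists gave the surroundings of each call. Of 66 lists with 1238 measured genes, 15 held a gene that passed, but 11 of these were drawn up around genes already called. Over all genes the median log2 change was 0.01 with 52.4% of genes above 0. Cholesterol synthesis leaned upward: 13 of its 17 measured genes were above 0 with a median of 0.11, but Pmvk alone passed. The mean over the list was 9.18 to 9.40 on the hypercapnia arrays and 9.00 to 9.24 on the normocapnia arrays, with overlap. Mvd, which makes the isoprenoid unit isopentenyl diphosphate, was at 8.07, 7.99, 8.25, 7.99 and 8.09 in hypercapnia and 7.73, 7.75, 7.78, 7.84 and 7.78 in normocapnia. Its groups were separate, yet its change of 0.30 did not pass (limma adjusted p 0.111). The squalene epoxidase gene Sqle was at 0.26 (limma adjusted p 0.331) and the lanosterol demethylase gene Cyp51 at 0.24 (limma adjusted p 0.419). At high stretch 8 of the 17 genes were called higher (2.49% of all genes were), with a median of 0.19. Of 14 measured genes of sterol sensing, uptake and efflux none passed. Their median was -0.01, the sterol exporter gene Abca1 being at -0.35 (limma adjusted p 0.227) and the sterol-responsive factor gene Srebf2 at 0.14 (limma adjusted p 0.417).

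RNA metabolism lists leaned downward. Of 18 measured mitochondrial RNA handling genes 17 were below 0, with a median of -0.15 (-0.10 without hypercapnia replicate 1), and the 2 that passed were Fastkd2 and Supv3l1. The mean over the list was 7.98 to 8.15 on the hypercapnia arrays and 8.19 to 8.31 on the normocapnia arrays, without overlap. Lrpprc, which stabilises mitochondrial messenger RNA, was at 8.48, 8.81, 8.76, 8.81 and 8.77 in hypercapnia and 8.91, 8.88, 9.04, 8.93 and 9.00 in normocapnia, and did not pass (-0.23, limma adjusted p 0.196). The transcription factor gene Mterf2 was at -0.33 (limma adjusted p 0.264). Integrator subunits had a median of -0.12 over 14 measured genes, of which 11 were below 0, and Ints7 passed. Their mean was 8.66 to 8.70 in hypercapnia and 8.76 to 8.82 in normocapnia, again without overlap. Ints2 (-0.30, limma adjusted p 0.213) and Ints4 (-0.19, limma adjusted p 0.52) did not pass. Such separation in a list's mean is a description, as the lists were chosen with results of these arrays known. Both lists were drawn up around genes already called, and their means include those genes.

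Ribosome biogenesis factors, which build the ribosome in the nucleolus, held no gene that passed, although 29 of 35 were below 0 with a median of -0.13. In 13 of them the unadjusted p was under 0.05, all lower (4.74% of all genes were lower at that threshold). The mean over the 35 genes was 8.53 to 8.74 on the hypercapnia arrays and 8.64 to 8.91 on the normocapnia arrays, with overlap. Utp20, of the complex that cuts the small subunit's ribosomal RNA, was at 7.76, 8.05, 7.92, 7.97 and 7.72 in hypercapnia and 8.11, 8.25, 8.34, 8.28 and 8.56 in normocapnia. The groups were separate, at -0.42 and a limma adjusted p of 0.0649. The helicase gene Ddx18 was at -0.28 (limma adjusted p 0.0871) and the RNA polymerase I gene Polr1b at -0.35 (limma adjusted p 0.164). At high stretch 24 of the 35 were called lower (3.07% of all genes were) and the median was -0.24. Mitochondrial ribosomal proteins had 56 of 76 genes below 0 with a median of -0.05, and none passed. The directions named for the cholesterol synthesis, mitochondrial RNA, Integrator and ribosome lists held after a second quantile normalization. They also held after median centring and in a fit with each array's spread added. Centring moves all lists by the same small amount, and array spread barely differed between the groups. Neither could have reversed medians of this size, so these settings did not test the directions.

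**Figure D4:**
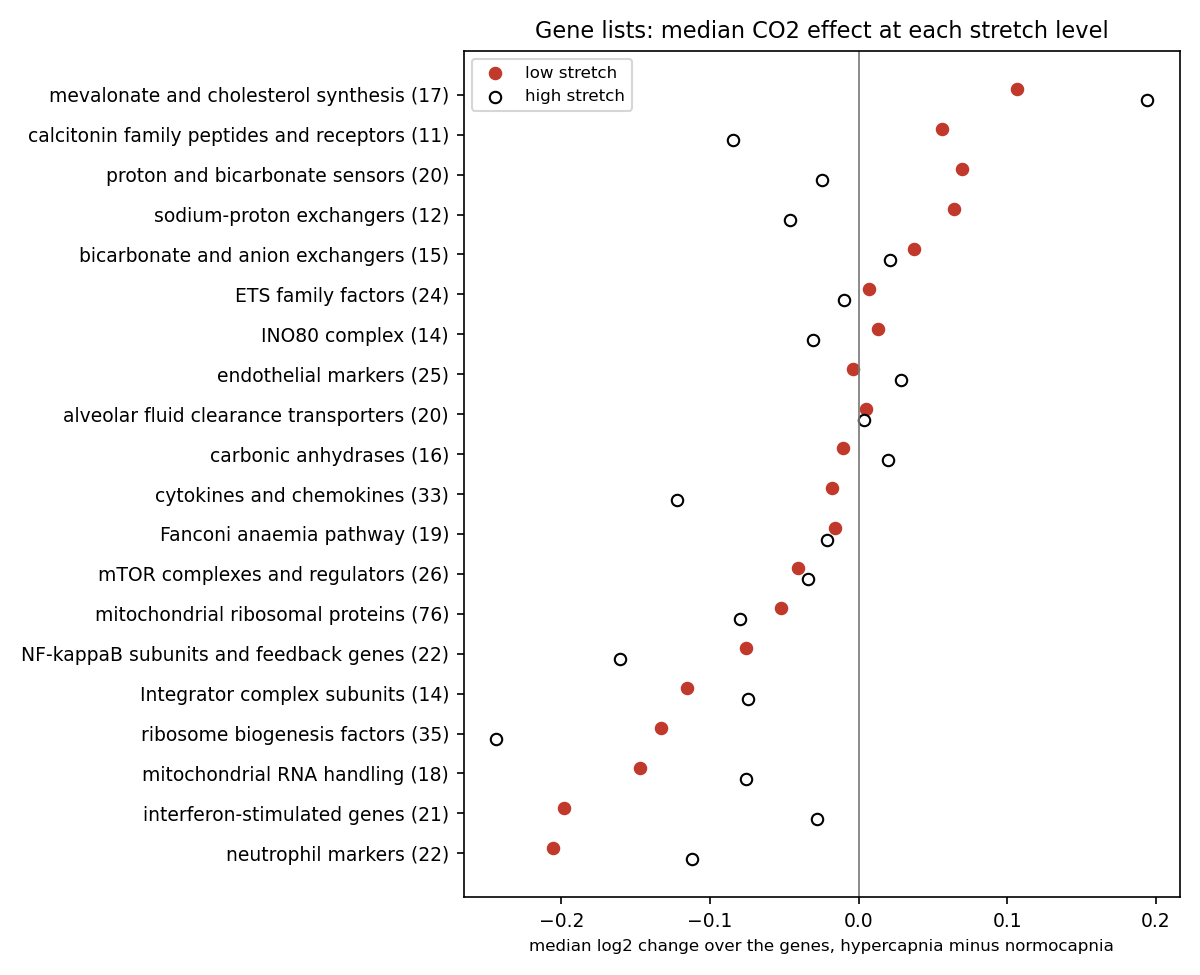
Each row is a gene list with its number of measured genes in brackets, and the x axis is the median log2 change, hypercapnia minus normocapnia. Filled points are low stretch and open points high stretch. Cholesterol synthesis stands at 0.11 and 0.19, ribosome biogenesis at -0.13 and -0.24, and neutrophil markers at -0.21 and -0.11.

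The other lists that held a call had medians close to 0. INO80 subunits had a median of 0.01 over 14 measured genes, of which 8 were above 0 and 6 below. Their mean, which includes Ino80c, was 8.76 to 8.80 in hypercapnia and 8.82 to 8.83 in normocapnia, without overlap. An unadjusted p under 0.05 was seen in 4, all lower (4.74% of all genes). Beside Ino80c these were Mcrs1 (-0.19, limma adjusted p 0.28), Ruvbl1 (-0.15, limma adjusted p 0.527) and Tfpt (-0.10, limma adjusted p 0.521). At high stretch 4 INO80 genes were called lower (3.07% of all genes). The mTOR list had a median of -0.04 over 26 genes, with the nutrient-sensing GTPase gene Rragb at -0.27 (limma adjusted p 0.342) after Mlst8. Fanconi anaemia genes had a median of -0.02 over 19 genes, with Fancc at -0.22 (limma adjusted p 0.264) and Fancd2, the substrate of Fancl, at -0.19 (limma adjusted p 0.464). NAD genes had a median of -0.04 over 15 genes, with the NAD kinase gene Nadk at -0.15 (limma adjusted p 0.568). Among 14 tubulins Tubb5 was at 0.23 (limma adjusted p 0.354) and Tubb3 at -0.20 (limma adjusted p 0.527). The calpain list was at 0.02 over 15 genes and the p97 cofactor list at 0.00 over 20, and neither had a second call. In the list of glycolysis and hypoxia-inducible genes Ankrd37 was the only call, and the median was 0.01 over 28 genes.

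Genes that handle CO2, protons and bicarbonate directly did not pass, apart from Slc9a8. None of 16 carbonic anhydrases passed or had an unadjusted p under 0.05, the median being -0.01. The cytosolic enzyme gene Car2 was at 9.17 ± 0.26 in hypercapnia and 9.10 ± 0.18 in normocapnia (SD, n = 5 each), and the lung endothelial membrane enzyme gene Car4 at 10.54 ± 0.16 and 10.48 ± 0.14 (SD, n = 5 each). The 95% confidence intervals of their log2 changes were -0.14 to 0.28 for Car2 and -0.11 to 0.22 for Car4. Car14 was at 0.17 at low stretch (limma adjusted p 0.675) and 0.49 at high stretch, where it passed (limma adjusted p 9.65e-05). No bicarbonate or anion exchanger of 15 passed, with Cftr at 0.15 (limma adjusted p 0.805) at low stretch and 0.44 (limma adjusted p 0.00243) at high stretch. Apart from Slc9a8 the sodium-proton exchangers did not pass, 8 of 12 being above 0, and Slc9a5 was at 0.18 (limma adjusted p 0.554).

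Proton sensors did not pass either. The endothelial proton receptor gene Gpr4 was at 7.14, 6.87, 6.92, 6.78 and 6.84 in hypercapnia and 6.79, 6.57, 6.76, 6.76 and 6.53 in normocapnia. Only hypercapnia replicate 4 fell within the normocapnia range, and the change of 0.23 (95% confidence interval 0.07 to 0.38) had a limma adjusted p of 0.28. Gpr65, the proton receptor of leukocytes, was at 0.07 (limma adjusted p 0.968), and the acid-sensing channel gene Asic1 at 0.22 (limma adjusted p 0.513). The list's median was 0.07, and -0.04 without hypercapnia replicate 1. Alveolar fluid clearance genes had a median of 0.00 over 20 measured genes with no call and no unadjusted p under 0.05. The sodium pump subunit gene Atp1b1 was at 11.60 ± 0.12 in hypercapnia and 11.59 ± 0.10 in normocapnia (SD, n = 5 each), a difference of 0.01 with a 95% confidence interval of -0.11 to 0.14. The epithelial sodium channel genes Scnn1g and Scnn1a were at -0.15 and -0.13 (limma adjusted p 0.623 and 0.726).

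Inflammatory genes differed widely between arrays of the same group. None of 33 cytokines and chemokines passed, with a median of -0.02. Cxcl10, an interferon-induced T cell attractant, was at 9.50, 7.21, 7.67, 7.30 and 7.37 in hypercapnia and 10.95, 8.95, 8.02, 7.64 and 9.44 in normocapnia. Its difference of -1.19 was the lowest of all genes, and its 95% confidence interval ran from -2.55 to 0.18 (limma adjusted p 0.623). The acute phase gene Saa3 was at 11.003, 8.46, 7.66, 7.79 and 6.72 in hypercapnia and 11.48, 10.52, 7.82, 8.35 and 9.37 in normocapnia (-1.18, limma adjusted p 0.589). In both genes hypercapnia replicate 1 and normocapnia replicate 1 were the highest arrays of their group. Il1b was at 9.85 on hypercapnia replicate 1 and 9.12 to 9.19 on the other hypercapnia arrays, against 10.42, 10.19, 9.41, 9.82 and 9.29 in normocapnia (-0.53, limma adjusted p 0.729).

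The cytokine genes Il6 and Tnf were at 0.24 (95% confidence interval -0.33 to 0.81) and -0.24 (-0.76 to 0.28), with limma adjusted p of 0.886 and 0.87. The chemokine genes Cxcl1 and Cxcl2 were at 0.08 and -0.19 (limma adjusted p 0.96 and 0.959). Nfkbia, the inhibitor of NF-kappaB that NF-kappaB itself induces, was at 0.09 (95% confidence interval -0.08 to 0.27, limma adjusted p 0.833). Of the 22 NF-kappaB subunits and feedback genes 17 were below 0, with a median of -0.08 and none passing. That median was -0.17 without hypercapnia replicate 1 and -0.01 without normocapnia replicate 1. Traf1 (-0.26, limma adjusted p 0.4) and the adhesion molecule gene Vcam1 (-0.26, limma adjusted p 0.419) had the smallest p. At high stretch the median was -0.16 and 2 were called lower (3.07% of all genes were). All 21 measured interferon-stimulated genes were below 0 with a median of -0.20, but none passed or had an unadjusted p under 0.05. Their mean was 9.20 on hypercapnia replicate 1 and 8.10 to 8.31 on the other hypercapnia arrays, against 9.58, 8.94, 8.21, 8.22 and 8.19 in normocapnia. The median was -0.40 without hypercapnia replicate 1 and 0.03 without normocapnia replicate 1, so its size and sign rested on single arrays.

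**Figure D5:**
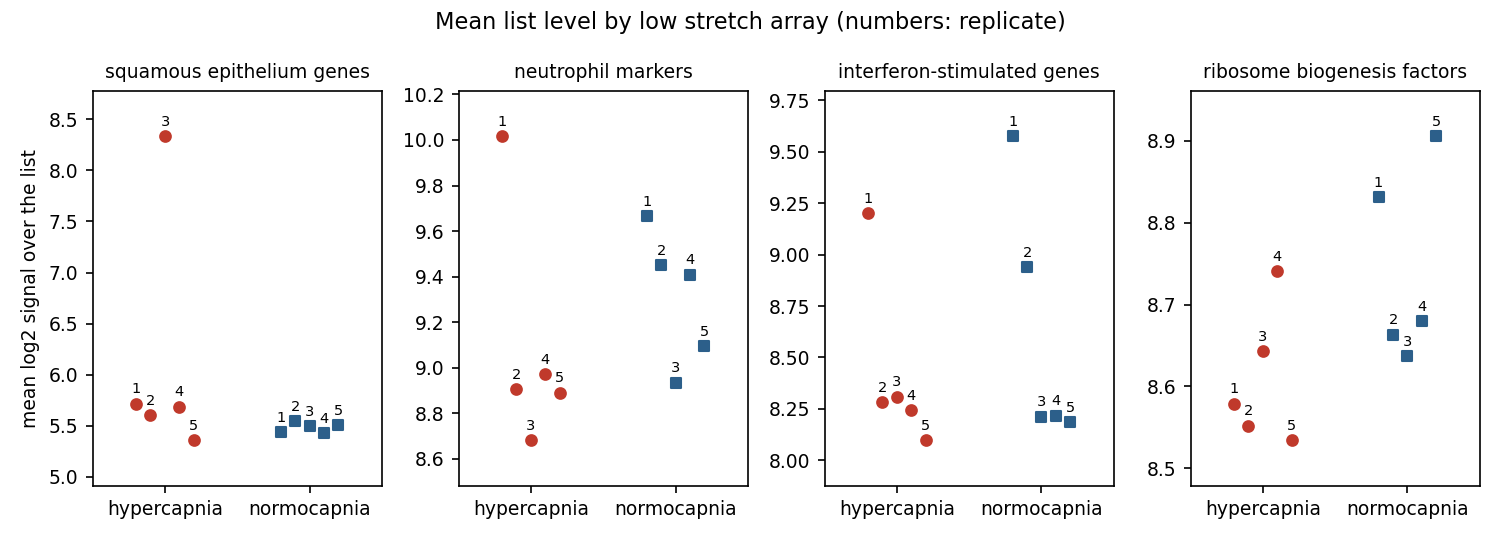
The mean log2 signal over 4 gene lists (y axis) is shown for each low stretch array, hypercapnia on the left and normocapnia on the right, with the replicate number above each point. Hypercapnia replicate 3 stands at 8.34 in the squamous epithelium genes, and replicate 1 of each group is the highest of its group in the neutrophil and interferon-stimulated lists.

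Markers of cell types gave no further call beyond Ccr8 and Zbtb7b. Neutrophil markers had 18 of 22 genes below 0 and a median of -0.21. This was -0.46 without hypercapnia replicate 1, -0.08 without hypercapnia replicate 3 and -0.07 without normocapnia replicate 1. Ly6g, a surface marker of mouse neutrophils, was at 10.11, 7.63, 7.19, 7.85 and 8.12 in hypercapnia and 9.39, 9.02, 8.30, 9.36 and 8.64 in normocapnia. In 4 of 5 hypercapnia arrays it lay below all normocapnia arrays, and replicate 1 lay above them all (-0.76, limma adjusted p 0.612). Of the T and natural killer cell list Ncr1, an activating receptor of natural killer cells, was at 5.67, 5.53, 5.98, 6.20 and 5.1996 in hypercapnia and 6.59, 6.71, 6.17, 6.07 and 6.42 in normocapnia, and did not pass (-0.68, limma adjusted p 0.183). Klrb1c was at -0.40 (limma adjusted p 0.331). At high stretch Ncr1 was at -0.73 and passed (limma adjusted p 0.00124). The B cell marker Ms4a1 was at -0.41 (limma adjusted p 0.356), and 12 of 14 measured B cell markers were below 0 with a median of -0.12. Treml4, a receptor of myeloid cells, was at 7.32 to 8.01 in hypercapnia and 8.00 to 8.75 in normocapnia (-0.71, limma adjusted p 0.219).

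Markers of structural cells did not pass. Of 25 endothelial markers 12 were above 0 and 13 below, and the median was 0.00. An unadjusted p under 0.05 was seen in 4, all higher (4.48% of all genes). Nos3, the endothelial nitric oxide synthase, was at 7.70, 7.48, 7.66, 7.55 and 7.70 in hypercapnia and 7.12, 7.42, 7.25, 7.41 and 7.39 in normocapnia. Its groups were separate, at 0.30 and a limma adjusted p of 0.188. The arterial connexin gene Gja4 was at 0.41 (limma adjusted p 0.218), Eng at 0.18 (limma adjusted p 0.33) and the VEGF receptor gene Flt1 at 0.19 (limma adjusted p 0.426). Of 14 alveolar type 1 markers 12 were below 0 with a median of -0.06, which was 0.00 without hypercapnia replicate 1. Pdpn, a membrane glycoprotein gene of these cells, was at 10.83, 11.33, 10.94, 10.89 and 11.18 in hypercapnia and 11.38, 11.16, 11.76, 11.48 and 11.51 in normocapnia (-0.42, limma adjusted p 0.122). Alveolar type 2 markers had a median of 0.04 over 15 genes, with the surfactant protein gene Sftpd at 0.13 (limma adjusted p 0.516). Ccn2, a matricellular gene induced by stretch and YAP, was at 9.80, 10.74, 10.79, 10.50 and 10.82 in hypercapnia and 11.10, 10.71, 11.62, 11.11 and 11.34 in normocapnia. It did not pass at low stretch (-0.65, limma adjusted p 0.24) and passed at high stretch (-0.71, limma adjusted p 0.0027).

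Just outside the threshold Proser2, on the higher side, was at 0.34 with a limma adjusted p of 0.050001, just above the limit. Dgka, a diacylglycerol kinase gene, was at 10.91, 10.91, 10.93, 11.06 and 10.87 in hypercapnia and 10.56, 10.62, 10.70, 10.64 and 10.79 in normocapnia (0.28, limma adjusted p 0.0568), and passed at high stretch (0.29, limma adjusted p 7.78e-05). The inward rectifier potassium channel gene Kcnj2 was at 9.18, 8.26, 8.58, 8.60 and 8.08 in hypercapnia, against 7.87, 7.86, 7.85, 8.15 and 7.75 in normocapnia. Hypercapnia replicate 5 was the one array within the normocapnia range (0.64, limma adjusted p 0.0673). The phospholipid flippase gene Atp8b2 (0.35), the adaptor gene Efs (0.38) and Tsc22d4 (0.21) each had a limma adjusted p of 0.0684. On the lower side stood Wdr77 (-0.34, limma adjusted p 0.0568), the cofactor of the arginine methyltransferase PRMT5, and Heatr3 (-0.32, limma adjusted p 0.0606), a chaperone of ribosomal protein import. Dkc1, the pseudouridine synthase of small nucleolar particles, was at -0.39 (limma adjusted p 0.0673). Wdr77 was at 9.58, 9.54, 9.66, 9.71 and 9.52 in hypercapnia and 10.00, 9.81, 9.85, 9.85 and 10.19 in normocapnia, without overlap. Dnajc11 (-0.22, limma adjusted p 0.0672), which acts in mitochondrial membrane organisation, and Mettl25 (-0.29, limma adjusted p 0.0673) completed this group.

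The largest differences were not those that passed. Of the 5 genes at 1 log2 unit or more, Krt13, Krt4 and Sprr3 were higher and Cxcl10 and Saa3 lower, and none passed. Krt13 was at 1.15 with a 95% confidence interval of -0.88 to 3.19 (limma adjusted p 0.815). Without hypercapnia replicate 3 the median over the 15 squamous epithelium genes was 0.13, against 0.67 with it. The keratin gene Krt6a was at 8.53 on that array and 5.53 to 6.11 on the other hypercapnia arrays, against 5.49 to 5.69 in normocapnia (0.74, limma adjusted p 0.402). The role of this tissue signal in the calls was not tested beyond leaving the array out.

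Ttpa, Adam17 and Alox5, which the laboratory had studied before, and Wnt7a did not pass at low stretch. Ttpa, the alpha-tocopherol transfer protein gene, was at 7.13, 7.08, 7.14, 7.46 and 7.34 in hypercapnia and 6.69, 7.07, 6.97, 7.17 and 6.61 in normocapnia. Its change of 0.33 had a 95% confidence interval of 0.01 to 0.64 (limma adjusted p 0.521), and 2 hypercapnia arrays lay above every normocapnia array. At high stretch Ttpa was at 0.73 and passed (limma adjusted p 8.29e-05), while Adam17, Alox5 and Wnt7a did not pass there. The sheddase gene Adam17 was at 9.97 ± 0.11 in hypercapnia and 10.10 ± 0.09 in normocapnia (SD, n = 5 each). The 95% confidence interval of its change was -0.27 to 0.01, and that of the 5-lipoxygenase gene Alox5 was -0.27 to 0.16. The WNT ligand gene Wnt7a was at -0.21 (-0.49 to 0.07, limma adjusted p 0.706). A p that misses the threshold does not show that these genes were alike in both groups, and the intervals give the sizes the arrays allow.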

How the data were processed

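Each Affymetrix array held whole lung RNA of 1 animal. The log2 signals were used as deposited. RMA, Expression Console and Partek appear in the submitters' processing notes, and their versions and roles are not given in the sources used here. Of 35557 probe sets 21789 carried 1 symbol in the platform's gene table, and each of 19938 genes was represented by its probe set of highest mean across 35 arrays. No filter on level was applied. Arrays carry no read depth, so their number limits the precision.

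One limma model (version 3.58.1, R 4.3.3) of the 5 group means used the 35 arrays together, with eBayes and 30 residual degrees of freedom. Tests were two-sided. The threshold was 0.05 for the p adjusted by Benjamini-Hochberg over all genes of a contrast. The labels call the arrays biological replicates and give no batch. They do not say whether equal replicate numbers mark paired animals. The correlations of the deviations of same-numbered arrays were 0.24, -0.05, -0.03, -0.08 and -0.12, too few values to decide it.

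Named genes are those that passed, the 6 with the smallest p and the 6 with the largest difference on each side among the rest, up to 4 members of each list described by smallest p, and a short list of inflammatory, acid-handling and laboratory genes. Predicted genes, clones and small RNAs were not named. Some genes are not reported here. Members and lists were chosen with earlier results of these data known, and the squamous epithelium list after seeing its values. Alternatives changed the arrays in the fit, the normalization, the probe set rule, the level filter and the variance model.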

Additional observations from a re-analysis of the deposited data

Results flagged for a closer look

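Within each group of 5 arrays, 28 values in 26 named genes lay far from the other 4, by a gap above 0.71 of the group's range (Dixon's 95% criterion). For unselected, normally spread values such gaps arise by chance in about 1 in 20 groups, and 324 groups of 162 genes were screened. Some of these genes were named for large differences, which single distant arrays can create, and related genes shared arrays. The 28 values can therefore not be read against that rate. Hypercapnia replicate 1 held 12 of these values, hypercapnia replicate 3 held 8, normocapnia replicate 1 held 6 and normocapnia replicate 4 held 2.

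On hypercapnia replicate 3 the squamous epithelium genes stood high: Krt13 at 10.96, Krt4 at 10.68, Sprr3 at 9.75, Krtdap at 8.58, Krt6a at 8.53, Lor at 8.15, Krt14 at 7.92 and Dsc3 at 6.90. No other hypercapnia array passed 6.73 in any of them. On hypercapnia replicate 1 the inflammatory genes stood high, with Cxcl10 at 9.50, Il1b at 9.85, Cxcl2 at 8.63, Nfkbia at 11.82 and Mmp9 at 9.62. The interferon-stimulated genes Cmpk2 and Oas1a were at 8.45 and 8.32 there, and Nadk was at 10.90. On the same array Lrpprc (8.48), Fancc (7.42), Car14 (7.21) and Snapc5 (7.88) stood low. Snapc5 was at 7.97 to 7.99 on the other 4 hypercapnia arrays.

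On normocapnia replicate 1 Icam1 (11.36), Csf1 (8.98), Nadk (11.07), Capn11 (5.41) and Supv3l1 (8.29) stood high and Krt4 (4.62) stood low. On normocapnia replicate 4 Slc9a8 (9.33) and Ruvbl1 (8.47) stood low. Without the distant array Slc9a8 still passed in limma, while Snapc5 and Supv3l1 kept their direction and did not pass. The cause of these values was not tested.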

How the results depend on the processing

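The number of genes called at low stretch, 23, was the value most open to the processing. With the low stretch arrays alone in the fit it was 0, with all probe sets tested 4, among genes above the median level 78, after a second quantile normalization 84 and 100 with each array's spread as a covariate. It ranged from 3 to 28 without 1 array, and was 0 without both hypercapnia replicates 1 and 3, which was chosen after seeing the data. Array weights gave 33, eBayes with trend and robust options 30, probe sets averaged 22 and median centring 19. All 23 genes were among the 84, the 100 and the 33. With the replicate number as a block 16 genes passed, 15 of them among the 23. Whether the numbers pair the animals is not stated in the labels. Erf and Ints7 passed in all 10 fits without 1 array, and 6 genes passed in at least 5 of them. The other 17 passed in 1 to 4. No called gene changed sign under the alternatives in which it was tested.

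The difference of the CO2 effects gave 0 calls under each alternative run, with a smallest adjusted p between 0.0955 and 1.00, and the low stretch calls that passed at high stretch numbered 15 to 19 (17 to 18 without 1 array). High stretch alone gave 1127 calls against 1109.

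Of the genes that did not pass, 10 changed sign under some alternative, at 20 values near 0. Without 1 array Alox5 ranged from -0.13 to 0.019, Cxcl1 from -0.014 to 0.17, Cxcl2 from -0.58 to 0.076, Car2 from -0.0089 to 0.16, Atp1b1 from -0.024 to 0.057, Gpr65 from -0.047 to 0.15, Calcrl from -0.15 to 0.0026 and Rsad2 from -0.60 to 0.013. Without both hypercapnia arrays Cxcl1 was at -0.094, Atp1b1 at -0.019, Gpr65 at -0.073, Capn6 at 0.0013 and Krt14 at -0.022, and with array weights Atp1b1 was at -0.010. The cause of these shifts was not tested.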

Other observations

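Lists with no gene that passed included several that leaned to one side. Ciliated cell markers were above 0 in 12 of 12 measured genes, with a median log2 change of 0.07 at low stretch and at high stretch. None had an unadjusted p under 0.05 at low stretch. Their mean level there was 8.02 to 8.33 on the hypercapnia arrays and 7.91 to 8.20 on the normocapnia arrays, with overlap. Core circadian clock genes were above 0 in 13 of 18, with a median of 0.12 at low stretch and 0.06 at high stretch. The low stretch median was 0.07 without hypercapnia replicate 1 or replicate 3. Targets of cAMP and CREB were above 0 in 14 of 19, with a median of 0.07 at both stretch levels, and none had an unadjusted p under 0.05 at low stretch. Immediate-early transcription factors had a median of 0.11 at low stretch (0.07 without hypercapnia replicate 1, 0.20 without normocapnia replicate 1) and -0.08 at high stretch. Cardiac muscle markers were below 0 in 12 of 13, with a median of -0.17 at low stretch (-0.07 without hypercapnia replicate 1) and 0.17 at high stretch. Their mean level was 8.07 to 8.94 on the hypercapnia arrays and 8.47 to 9.10 on the normocapnia arrays at low stretch. Respiratory chain subunits were below 0 in 47 of 71, with a median of -0.04, which was -0.0010 without hypercapnia replicate 1. Over all genes 52.4% were above 0.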
